A study of Mus musculus with 12 samples.

Results

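Wild-type clones of RAW264.7, a macrophage-like line of mouse cells, were compared after 6 h of 10 ng/mL LPS plus 50 ng/mL IFN-gamma and in medium alone. The comparison took 6 of the 12 samples of the series, chosen by their labels: 3 clones named WT, with 1 library from medium and 1 library from stimulated cells of each. These clones keep NRE1, a region that the remaining samples lack through CRISPR deletion. The labels say that clones were grown from single cells after CRISPR constructs were introduced and selected by GFP and puromycin markers, and they do not say whether the WT clones took up those constructs. Each clone was set against itself, so p-values weigh the mean response against its variation over 3 clones. All genes of the table were analysed, and gene families were described by counts of members that passed the test.

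LPS is sensed by the receptor TLR4 with its helper CD14, which signal through NF-kB, MAP kinases and interferon regulatory factors. IFN-gamma signals through the kinases JAK1 and JAK2 to transcription factors that bind GAS sequences, while type I interferon released by stimulated cells acts on ISRE sequences. In macrophages the pair is known for driving a program of host defence in which cytokine, antimicrobial and antigen presentation genes rise, while genes of proliferation and of resting tissue macrophages fall.

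Total counts ran from 11509116 to 14388590 per library. Macrophage markers were read in the clones: 15 of 16 macrophage markers were tested, and Lyz2, the lysozyme gene, was the most abundant protein-coding transcript per length in both conditions. Of markers for other cells, 1 of 18 T, NK and B cell genes (Ighm), 0 of 15 neutrophil, mast and erythroid genes and 1 of 15 fibroblast, epithelial and endothelial genes had a row, and the last of these did not pass the filter on low counts. Ighm was listed at 0.213, 46.5 and 51.1 CPM in medium and 2.06, 18.8 and 174 CPM after stimulation in clones 1, 2 and 3, and was not called. Ighm was 1.92 at an adjusted p of 0.0056 without clone 2. CPM are counts scaled to the same library size after TMM scaling, which sets libraries to a common scale through the bulk of their genes. In bulk RNA a change in how many cells express a gene and a change in RNA per cell cannot be told apart.

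Of 11797 genes tested, 53.1% were called at an adjusted p below 0.05: 3067 higher (26.0%) and 3196 lower (27.1%). A 4-fold change was passed by 600 of the higher genes (5.09%) and 339 of the lower genes (2.87%). The directions differed in reach. Fitted folds of the 50 higher and 6 lower called genes with 0 to 3 counts in 1 group depend on the prior count, so sizes were counted over the other called genes. Of these, 33 rose by more than 8 on the log2 scale and 0 fell as far, and between 4 and 8 there were 167 higher and 12 lower genes. At the other end, 2251 genes had a 95% interval of the log2 fold change that lay wholly within 0.5 of no change. Of the 6263 called genes, 6243 moved the same way in each of the 3 clones, and in 5198 (83.0%) the 3 medium and 3 stimulated libraries did not overlap, against 51.1% of all tested genes.

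The split of calls depended on scale. When libraries were scaled by their totals alone, the median of all genes fell to -0.368 on the log2 scale, and 1622 genes were higher (13.7%) and 5535 lower (46.9%), so that 22.7% of calls were higher instead of 49.0%. The genes that rose past 4-fold held 1.49% to 1.73% of all counts in medium and 13% to 15% after stimulation. The genes that fell past 4-fold went from between 1.45% and 1.53% to between 0.18% and 0.264%. Counts of families below are therefore given with TMM scaling and, beside it, with library totals. They are to be read against the shares of all tested genes. These were 26.0% higher and 27.1% lower with TMM scaling, and 13.7% and 46.9% with library totals. Levels are CPM as mean ± SD over 3 clones, changes are log2 fold changes ± SE, and adjusted p-values come from edgeR's quasi-likelihood test over all genes.

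A set of 42 genes went from 0 to 3 counts over all medium libraries to at least 100 over the stimulated ones, and 5 genes did the reverse. Of the genes of both kinds, 38 were among those tested, and the others did not pass the filter on low counts. Since a fold against 0 has no value, a floor of 3 counts gives a lower bound. Counts of 1 to 3 give a ratio with a 95% counting interval. Klrk1, which encodes the activating receptor NKG2D, had 0 counts in each medium library and 209, 77 and 436 counts after stimulation, at least 328-fold higher. AA467197, the gene that hosts the microRNA gene Mir147, had 0 counts in medium and 66, 125 and 333 after stimulation, at least 238-fold higher. Neither gene was detected in the 3 medium libraries at this depth, and both were read in the 3 stimulated ones.

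Other genes of this kind covered several roles. Fpr2, a receptor for formylated bacterial peptides, went from 0 to 207 counts, at least 94.1-fold higher. Ubd, which encodes the ubiquitin-like modifier FAT10, went from 0 to 147, at least 66.8-fold higher. F3, the gene of tissue factor that starts blood coagulation, went from 2 to 719 counts, a ratio of 490 (135 to 4056). Col5a3, a fibrillar collagen chain, went from 3 to 4089 counts, a 1859-fold ratio (636 to 9017). C1s1, a serine protease of the complement C1 complex, went from 1 to 789 counts, a 1076-fold ratio (193 to 42554). Fst, which encodes the activin antagonist follistatin, went from 2 to 506 (345-fold, 95 to 2857). Pdpn, the membrane glycoprotein podoplanin, went from 1 to 557 counts (760-fold, 136 to 30057). Fst had 133, 336 and 37 stimulated counts in clones 1, 2 and 3, Pdpn 353, 186 and 18, and Col5a3 612, 2786 and 691. The leading clone held 66.4% of the stimulated counts of Fst, 63.4% of Pdpn and 68.1% of Col5a3. For Ubd, C1s1, F3 and Fpr2 the share was 61.9%, 59.1%, 48.0% and 40.1%. Over the 42 genes the leading clone held a median of 57.4% of the stimulated counts.

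In 5 of the 42 genes 1 clone held more than 80% of the stimulated counts. Ciita, the master regulator of MHC class II genes, had 15, 335 and 6 counts in clones 1, 2 and 3. The chemokine gene Cxcl3 had 31, 694 and 10, the EGF receptor ligand gene Areg 4, 93 and 3, and the C-type lectin gene Cd207 (langerin) 50, 523 and 37. Il10, the anti-inflammatory cytokine gene, had 4, 12 and 344 counts, with the high value in clone 3. For these genes the size of the rise rests on 1 clone. The 5 genes that went the other way were Cxcr4, Ablim1, Myadml2, Dmp1 and Lrrc17. Lrrc17, a leucine-rich repeat protein gene, had 26, 44 and 30 counts in medium and 0 after stimulation, at least 24.4-fold lower. Ablim1, an actin-binding LIM protein gene, had 227 of its 239 medium counts in clone 2 and 3 counts after stimulation, a 58.4-fold ratio (19.7 to 285). Clone 2 also held 366 of the 400 medium counts of Cxcr4 and 118 of the 129 of Dmp1. For Ablim1, Cxcr4 and Dmp1 the size of the fall rests on 1 clone. Ciita, Areg, Il10, Ablim1 and Dmp1 were among the genes left out by the filter on low counts. Their changes were therefore not tested in the primary fit. Myadml2 overlaps another gene or shares its counts and is uncertain.

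Outside all lists of families, and without a set of genes left aside, among them Iigp1 (11.36) and Gbp2 (10.39), called protein-coding genes that reached 5 CPM in either group mean were ranked by fitted fold change. The top 15 places were taken by interferon-inducible GTPases, chemokines and genes of other kinds. Gbp2b, a guanylate-binding protein gene, stood at 0.356, 0 and 0.428 CPM in medium and 380, 720 and 553 CPM after stimulation (10.89 ± 0.47, adjusted p = 9.5e-05). Cxcl9, an IFN-gamma-induced chemokine that draws T cells, stood at 0.284, 0.154 and 0.122 CPM in medium and 149, 105 and 630 CPM after stimulation (10.54 ± 0.42, adjusted p = 6.3e-05). Il33, an alarmin of the IL-1 family, went from at most 0.213 CPM to 51.7, 509 and 197 CPM (10.58 ± 0.56, adjusted p = 0.00017). The stimulated level of Il33 was lowest in clone 1 and highest in clone 2, and each medium library lay close to 0. The remaining members of this group were AA467197, C1s1, Col5a3, Cxcl3, F830016B08Rik, Gbp4, Gm4841, Gm4951, Ifi214, Klrk1, Tgtp1 and Tgtp2. Of these, AA467197, C1s1, Col5a3, Cxcl3, F830016B08Rik, Gm4841, Ifi214, Klrk1 and Tgtp1 had 0 to 3 counts in medium, so their place in the order depends on the prior count.

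The 15 lowest fold changes outside the lists, with the same limit of 5 CPM, ran from -5.22 to -3.29. Fam13c stood at 8.39, 5.62 and 15.9 CPM in medium and 0.269, 0.301 and 0.187 CPM after stimulation (-5.22 ± 0.37, adjusted p = 0.00032). Kbtbd11, a BTB-Kelch protein gene, was the most abundant of them: it fell from 247, 278 and 227 CPM to 55.0, 12.7 and 16.1 CPM (-3.44 ± 0.46, adjusted p = 0.0025). Slc43a2, which encodes an importer of large neutral amino acids, fell from 174 ± 62.5 to 14.1 ± 9.31 CPM (-3.81 ± 0.32, adjusted p = 0.0006). Frmd4b, a FERM-domain scaffold gene, fell from 121 ± 17.8 to 10.4 ± 6.54 CPM (-3.64 ± 0.35, adjusted p = 0.00092). Susd3, a sushi-domain membrane protein gene, fell from 66.9 ± 15.9 to 6.18 ± 0.236 CPM (-3.41 ± 0.18). Gsdme, a pore-forming gasdermin that caspase-3 can cleave, fell from 5.97 ± 3.10 to 0.577 ± 0.378 CPM (-3.37 ± 0.26). Angpt2, a ligand of the receptor TIE2, fell from 12.6 ± 2.70 to 1.23 ± 0.582 CPM (-3.34 ± 0.36). The others were C130050O18Rik, Fblim1, Nhsl1, Pald1, Pitpnc1, Prtg, Sla and Ttc39a. The medium and stimulated libraries did not overlap in 14 of these 15 genes, and overlapped in Sla, whose level differed by clone.

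**Figure D1:**
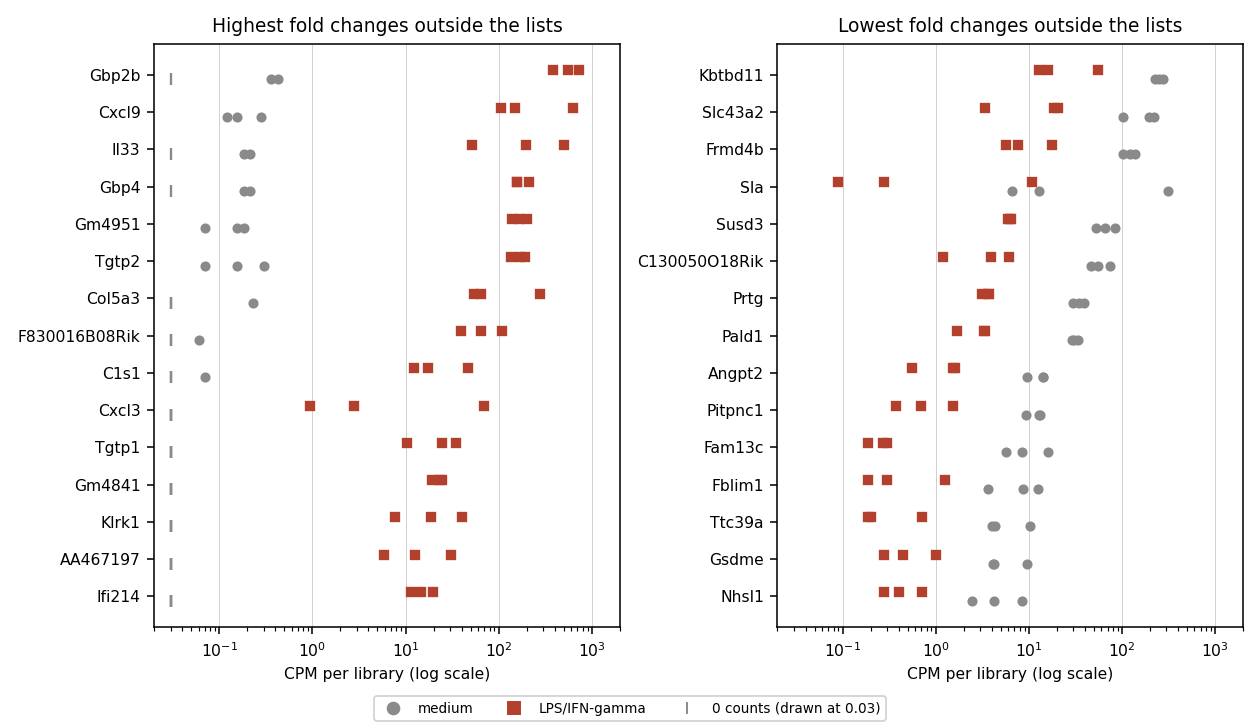
CPM on a log axis of the 15 highest (left) and 15 lowest (right) log2 fold changes of called protein-coding genes that reached 5 CPM in either group mean, outside the lists and the genes left aside, with 1 point per library, grey circles for medium and red squares for LPS/IFN-gamma. Libraries with 0 counts are drawn as bars at 0.03 CPM, and the conditions are apart in every gene shown except Sla.

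Ranked by the change in level instead of the fold, a different set led. Acod1, the itaconate-producing enzyme of activated macrophages, rose from 5.76, 18.4 and 10.3 CPM to 8062, 10142 and 5600 CPM (9.51 ± 0.39, adjusted p = 8e-05). Per transcript length, a scale on which genes can be compared, it moved from rank 7210 to rank 5 among protein-coding genes. Ptgs2, the inducible cyclooxygenase of prostaglandin synthesis, rose from 126 ± 51.9 to 7513 ± 382 CPM (5.97 ± 0.24, adjusted p = 6.3e-05), from rank 1682 to 11. Actb, the cytoplasmic beta-actin gene, rose from 4921 ± 401 to 12056 ± 1452 CPM (1.29 ± 0.11). Rnf213, a giant E3 ubiquitin ligase that coats intracellular bacteria, rose from 449 ± 240 to 4951 ± 1956 CPM (3.51 ± 0.16). Ctsc, the protease that activates granule serine proteases, rose from 161 ± 124 to 2964 ± 2200 CPM (4.02 ± 0.33). Plek, the platelet and leukocyte C kinase substrate pleckstrin, rose from 492 ± 137 to 3150 ± 826 CPM (2.68 ± 0.12). One gene without a name in the annotation, ENSMUSG00000028269, rose from 1.82 ± 0.419 to 3568 ± 794 CPM (10.92 ± 0.17).

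Several large losses in level were in abundant genes with folds under 4. Csf1r, the receptor gene described below with the growth factors and left out of this ranking, fell from 2081 ± 520 to 580 ± 183 CPM. Ahnak, a giant scaffold protein, fell from 5540 ± 1728 to 3517 ± 1037 CPM (-0.65 ± 0.11). The proliferation genes Mki67 and Top2a, a marker of cycling cells and a DNA topoisomerase, fell from 1215 ± 210 to 467 ± 150 CPM (-1.42 ± 0.13) and from 1166 ± 225 to 711 ± 234 CPM (-0.75 ± 0.14). Colec12, a scavenger receptor of the collectin family, stood at 594, 678 and 607 CPM in medium and 236, 202 and 141 CPM after stimulation (-1.73 ± 0.17, adjusted p = 0.00077). The DNA methyltransferase gene Dnmt1 fell from 483 ± 92.1 to 162 ± 81.5 CPM (-1.70 ± 0.22), and Gm42743, a long noncoding RNA, from 813 ± 278 to 255 ± 55.5 CPM (-1.64 ± 0.12).

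Promoters were read at the start of the genes, from 250 bases before to 50 bases after, in the RefSeq table of build GRCm38.p6, which matched 8684 of the 11797 tested genes by symbol. Of genes with several RefSeq starts, the one nearest the start in the gene annotation was used. The letters searched on both strands were GGGNNTTTCC for an NF-kB (kappa-B) site, GAAANNGAAA for the core of an ISRE, TTCNNNGAA for a GAS site, and TTTGGCGC or TTTCCCGC for an E2F site. TATAAA was searched on the gene's strand between 40 and 11 bases before the start. A GAS match can overlap an ISRE match. The upstream parts of the promoters of Cxcl3, Tgtp1 and Ifit2 are shown because, among the promoters eligible for printing, they belong to the genes with the highest fitted fold change of those that rose past 4-fold and held each motif. For Cxcl3, whose window held the kappa-B and TATA letters, the region is chr5:90785851-90786100 on the plus strand. For Tgtp1, an IFN-gamma-inducible GTPase whose window held the ISRE and GAS letters, it is chr11:48992247-48992496 on the minus strand. For Ifit2, an interferon-induced tetratricopeptide repeat gene whose window held the E2F letters, it is chr19:34550444-34550693 on the plus strand. The sequences read 5′ to 3′ on the gene's strand, and capitals mark the letters of the motifs named for each. Ifit2 was 4.55 at an adjusted p of 0.12 without clone 1.
Cxcl3: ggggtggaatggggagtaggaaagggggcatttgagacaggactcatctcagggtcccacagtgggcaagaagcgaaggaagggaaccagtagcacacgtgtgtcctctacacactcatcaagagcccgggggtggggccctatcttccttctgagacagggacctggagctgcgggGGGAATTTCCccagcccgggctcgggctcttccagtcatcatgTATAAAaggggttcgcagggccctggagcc
Tgtp1: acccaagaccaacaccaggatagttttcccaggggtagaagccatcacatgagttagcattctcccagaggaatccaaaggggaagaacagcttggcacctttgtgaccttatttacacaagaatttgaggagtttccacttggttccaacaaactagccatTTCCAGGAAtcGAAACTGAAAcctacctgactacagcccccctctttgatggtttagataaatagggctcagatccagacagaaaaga
Ifit2: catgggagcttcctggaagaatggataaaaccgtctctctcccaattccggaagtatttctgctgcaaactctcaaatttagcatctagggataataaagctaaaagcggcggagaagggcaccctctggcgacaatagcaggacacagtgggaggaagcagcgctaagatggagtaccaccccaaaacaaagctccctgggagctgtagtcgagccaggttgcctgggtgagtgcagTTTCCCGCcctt

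In Cxcl3 the kappa-B letters began 73 bases and the TATA letters 30 bases before the start. In Tgtp1 the GAS letters began 88 bases and the ISRE letters 77 bases before the start, so that the pair lay side by side. The E2F letters of Ifit2 began 12 bases before the start, and GAS letters, left in lower case, 241 bases before it. ISRE letters were in 17.2% of the 425 promoters of genes that rose past 4-fold, in 4.06% of genes that rose less, in 2.48% of genes not called and in 1.67% of genes that fell past 4-fold. Kappa-B letters were in 4.71% of the first class, 1.54% of genes not called and 0.417% of genes that fell past 4-fold. GAS letters ran from 11.3% in the first class to 5.0% in the last, with 6.67% in genes not called. TATA letters were in 3.76% of genes that rose past 4-fold and 0.531% of genes not called. E2F letters ran the other way, in 1.41% of the first class, 3.26% of genes not called, 5.42% of genes that fell by less than 4-fold and 4.17% (2.28 to 7.5) of genes that fell past 4-fold. In the 150 bases before the start the E2F share of genes that fell past 4-fold (1.67%) lay below that of genes not called (1.95%). Over all 32851 promoters of the RefSeq table the shares were 3.44% for ISRE, 1.63% for kappa-B, 8.30% for GAS, 2.08% for TATA and 1.56% for E2F letters. A match of letters is a description of the sequence and not a bound site, and neighbouring family members can share promoter sequence.

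**Figure D2:**
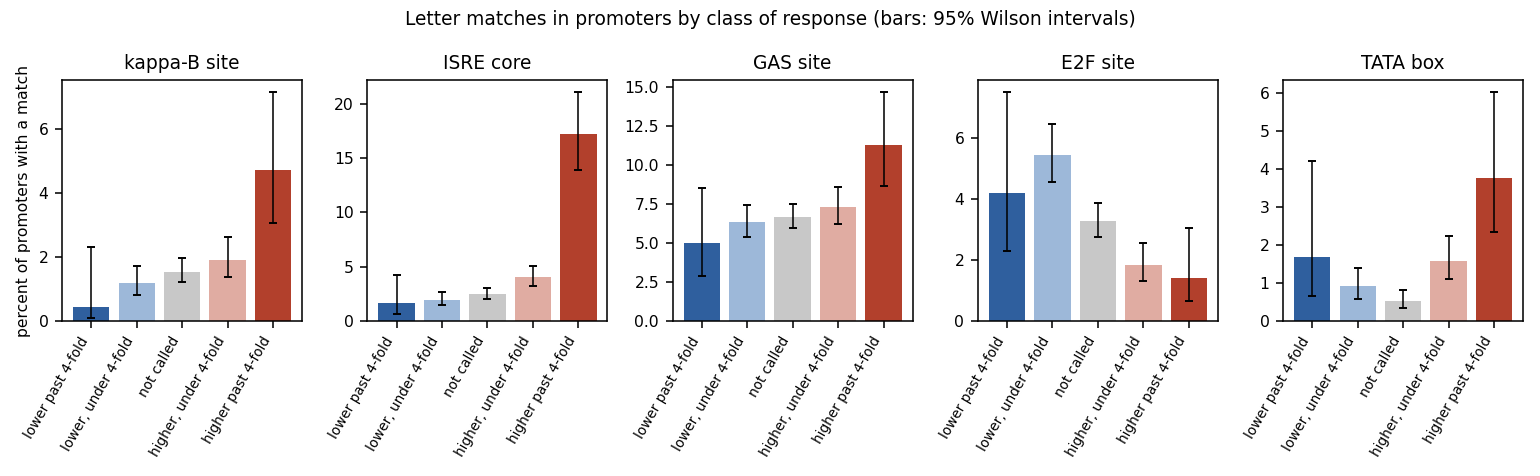
Percent of promoters that hold the letters of each of 5 motifs, by class of response, with 95% Wilson intervals for counting over promoters. The axis of each panel has its own scale, and the share of promoters with ISRE letters reaches 17.2% in genes that rose past 4-fold against 2.48% in genes not called.

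Promoters of the strongest risers also differed in base composition. The ratio of observed to expected CpG had a median of 0.399 in genes that rose past 4-fold, against 0.802 in genes not called and 0.796 in genes that rose less. In genes that fell past 4-fold it was 0.700. A ratio over 0.6, a usual threshold for CpG islands, was reached by 35.5% of the promoters of genes that rose past 4-fold and by 79.4% of those not called.

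Genes that rose strongly were often neighbours. In the annotation's order, 26 runs of at least 3 adjacent tested genes were all higher past 4-fold, and these runs held 122 genes, 21.6% of the 564 placed genes that rose so far. A run of 11 genes on chromosome 1 (84963669 to 85709998) ended in Sp110, Sp140 and Sp100, which encode SP100-family chromatin readers of nuclear bodies, with changes of 3.54, 3.85 and 3.62. A run of 8 on chromosome 7 (104244457 to 104535361) held Trim34a, Trim34b, Trim12c and the Trim30 genes, at 2.86 to 7.63. A run of 4 on chromosome 6 (124493113 to 124636085) held the complement protease genes C1rl, C1ra, C1s1 and C1s2, at 3.01 for C1rl and 2.25 for C1ra. Another on chromosome 6 (129180615 to 129275436) held Clec2d, a ligand of an NK receptor, and the early activation marker Cd69. A run of 4 on chromosome 13 (32965209 to 33094380) held Serpinb6b, Serpinb9, Serpinb9b and Serpinb1b, inhibitors of intracellular and granule proteases, at 3.27 to 5.16. A run of 4 on chromosome 14 held 3 Phf11 genes, at 2.64 to 4.56, and a run of 3 on chromosome 15 held the apolipoprotein L genes Apol9a, Apol10b and Apol9b, at 3.14 to 4.68. Apol9a was 3.46, and 6.29 without clone 3.

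Runs also joined genes of unlike function. On chromosome 19 (34241090 to 34481546) the smooth muscle actin gene Acta2 (2.34) lay beside the death receptor gene Fas (6.37) and the noncoding gene Gm26902 (3.11). On chromosome 1 (150074873 to 150164948) Ptgs2 lay between the noncoding genes Ptgs2os (2.29) and Ptgs2os2 (3.58). The only 2 runs of lower genes were histone genes on chromosome 13, 3 genes from Hist1h2bn to Hist1h2bp at -2.48 to -2.24 and 6 genes from Hist1h2bb to Hist1h1a at -2.78 to -2.05. Members of the tandem families resemble each other in sequence, so reads may have been split between them and single members are uncertain.

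Among receptors that guide cells and sense metabolites, 13 of 24 tested genes rose and 3 fell (11 and 3 with library totals), with a median of 1.19 against -0.01 over all genes. Ccrl2, an atypical receptor that presents chemerin, rose from 0.414 ± 0.175 to 39.3 ± 9.29 CPM (6.51 ± 0.26, adjusted p = 6.3e-05). Gpr183, a receptor for oxysterols, stood at 149, 259 and 189 CPM in medium and fell to 39.8, 10.5 and 17.9 CPM (-3.26 ± 0.52, adjusted p = 0.0046). The fractalkine receptor gene Cx3cr1 fell from 341 ± 160 to 73.8 ± 58.9 CPM (-2.38 ± 0.39, adjusted p = 0.0048), and without clone 1 it was -2.70 at an adjusted p of 0.075. In the group for extracellular nucleotides, 6 of 10 rose and 2 fell (6 and 4 with library totals). Entpd1, the ATP-degrading ectoenzyme CD39, rose from 0.0711, 0.616 and 0 CPM to 23.6, 64.2 and 13.7 CPM (7.26 ± 0.36, adjusted p = 0.00011), and Adora2b, an adenosine receptor, from 3.89 ± 1.58 to 53.3 ± 8.15 CPM (3.81 ± 0.18). P2rx7, the ATP-gated channel that feeds inflammasome activation, fell from 41.3 ± 6.14 to 17.3 ± 2.51 CPM (-1.25 ± 0.13). The enzyme that removes ATP and a receptor for its breakdown product were higher, and a receptor for ATP itself was lower.

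Cyclic nucleotide genes were split, with 7 of 24 higher and 10 lower (5 and 14 with library totals). Pde4b, a cAMP phosphodiesterase, rose from 2.07 ± 0.688 to 165 ± 79.8 CPM (6.26 ± 0.18, adjusted p = 3.5e-05), while its paralog Pde4a fell from 10.9 ± 2.30 to 3.39 ± 0.962 CPM (-1.70 ± 0.18, adjusted p = 0.001). Rapgef2, an exchange factor for the GTPase Rap1, rose from 54.7, 45.4 and 72.0 CPM to 858, 1022 and 782 CPM (3.97 ± 0.23). Among regulators of G protein signalling 2 of 11 rose and 3 fell under both scalings (18.2% and 27.3%, near the shares of all genes), and Rgs9 went from 2 to 412 counts, a 281-fold ratio (77.3 to 2328).

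Inducible and stress kinases included 19 of 51 higher and 15 lower (13 and 25 with library totals). Ikbke, the inducible IKK-related kinase upstream of interferon regulatory factors, rose from 3.27 ± 1.80 to 96.2 ± 29.9 CPM (4.90 ± 0.27). Pim1, a survival kinase, rose from 6.47, 4.47 and 5.93 CPM to 134, 136 and 151 CPM (4.65 ± 0.15, adjusted p = 4e-05). Map3k5, the stress kinase ASK1, fell from 53.4 ± 4.91 to 14.6 ± 4.25 CPM (-1.89 ± 0.21). Phosphoinositide enzymes included 23 of 59 higher and 13 lower (12 and 22 with library totals). The myotubularin genes Mtmr7 and Mtmr14 rose by 5.99 ± 0.43 and 2.38 ± 0.13, Mtmr7 from 9 counts to 432, while Pip4k2a, which makes PI(4,5)P2 from PI5P, fell from 128 ± 26.1 to 33.0 ± 2.27 CPM (-1.93 ± 0.12).

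In the TGF-beta and BMP pathway 5 of 29 genes were higher (17.2%) and 11 lower (37.9%), against 26.0% and 27.1% of all tested genes. With library totals 3 were higher and 16 lower, beside 13.7% and 46.9% of all tested genes. Smad6, an inhibitory SMAD that BMP signals induce, fell from 6.60 ± 3.46 to 0.946 ± 0.832 CPM (-2.85 ± 0.28). Id3, an inhibitor of helix-loop-helix factors and a classic BMP target, fell from 30.9 ± 10.6 to 6.20 ± 1.48 CPM (-2.28 ± 0.28). The BMP receptor gene Acvrl1 rose from 10.9 ± 1.96 to 38.0 ± 15.9 CPM (1.72 ± 0.28), beside the rise of the antagonist Fst given above. Guidance genes of the semaphorin, plexin and ephrin system included 3 of 16 higher and 8 lower (3 and 10 with library totals): Epha2, an ephrin receptor, fell from 21.4 ± 11 to 2.24 ± 1.46 CPM (-3.27 ± 0.21), Plxna2 by 2.46 ± 0.27 on the log2 scale, and Sema4a, a semaphorin of immune cells, rose from 16.2 ± 4.17 to 52.1 ± 24.9 CPM (1.59 ± 0.29). Of growth factors 8 of 22 rose and 8 fell (8 and 10 with library totals). Csf1, which encodes the macrophage growth factor M-CSF, rose from 0.356, 0.385 and 0.550 CPM to 32.0, 21.4 and 29.1 CPM (5.95 ± 0.22, adjusted p = 5.2e-05). Its receptor gene Csf1r fell from 2081 ± 520 to 580 ± 183 CPM (-1.87 ± 0.16). Lif, a cytokine of the IL-6 family, rose by 5.87 ± 0.32, and Angptl4, an inhibitor of lipoprotein lipase, fell by 3.28 ± 0.30 on the log2 scale. In the Wnt pathway 19 of 26 genes were not called, with 2 higher and 5 lower (1 and 15 with library totals).

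Among transcription factors of lineage families 19 of 100 rose and 33 fell (10 and 55 with library totals). Mef2c, a MADS-box factor of myeloid cells, stood at 140, 226 and 308 CPM in medium and 29.9, 26.7 and 47.2 CPM after stimulation (-2.67 ± 0.18, adjusted p = 0.00028). Maff, a small MAF protein that lacks an activation domain, rose from 2.01 ± 1.80 to 43.4 ± 25.4 CPM (4.44 ± 0.48). Zinc finger genes with Zfp names included 41 of 294 higher and 92 lower (11 and 169 with library totals). Zfp36, which encodes the mRNA-destabilizing protein tristetraprolin, rose from 18.9, 12.6 and 16.2 CPM to 189, 183 and 139 CPM (3.42 ± 0.17), and Zfp651 fell from 32.2 ± 0.839 to 3.13 ± 0.255 CPM (-3.36 ± 0.14, adjusted p = 8e-05). Clock genes included 2 of 19 higher and 8 lower (1 and 11 with library totals), with the core component Per3 lower by 1.89 ± 0.22 on the log2 scale and the clock-controlled deubiquitinase gene Usp2 down from 11.4 ± 0.794 to 1.60 ± 0.979 CPM (-2.85 ± 0.36). The REV-ERB beta gene Nr1d2 fell from 35.5 ± 3.41 to 14.1 ± 1.09 CPM (-1.33 ± 0.14), among nuclear receptors of which 6 of 20 rose and 6 fell (3 and 9 with library totals).

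Enzymes that write and erase histone and DNA methylation included 18 of 76 higher and 24 lower (9 and 45 with library totals). Kdm6b, a demethylase of histone H3 lysine 27 known as JMJD3 and induced in activated macrophages, rose from 2.63, 1.46 and 2.63 CPM to 8.26, 22.7 and 16.6 CPM (2.72 ± 0.41, adjusted p = 0.0034). Kmt5c, a methyltransferase of histone H4 lysine 20, fell from 24.7 ± 1.54 to 6.68 ± 1.01 CPM (-1.89 ± 0.14), and Kdm2b by 1.70 ± 0.21 on the log2 scale. Histone acetylation genes included 7 of 49 higher and 18 lower (3 and 30 with library totals). The class IIa deacetylase genes Hdac5 and Hdac9 fell from 79.9 ± 9.58 to 15.1 ± 4.35 CPM (-2.43 ± 0.15) and from 22.9 ± 6.06 to 5.29 ± 2.38 CPM (-2.13 ± 0.26).

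DNA repair was the list with the largest share of lower genes: 73 of 121 tested genes fell and 7 rose (94 and 2 with library totals), with a median of -0.59. Neil3, a DNA glycosylase of cycling cells, fell from 28.0 ± 6.44 to 4.64 ± 1.59 CPM (-2.60 ± 0.22). Atrip, the partner of the checkpoint kinase ATR, went against the list and rose from 60 ± 18 to 355 ± 37.3 CPM (2.60 ± 0.14, adjusted p = 0.00013), but a share of 0.16 of its exons overlaps Trex1, and reads of the neighbour cannot be told apart there. Purine and pyrimidine metabolism held both extremes, with 13 of 53 higher and 23 lower (4 and 34 with library totals). Upp1, the uridine phosphorylase that feeds uridine ribose into metabolism, rose from 0.213, 0.539 and 0.489 CPM to 500, 522 and 578 CPM (10.31 ± 0.22, adjusted p = 1.9e-05). Tk1, the thymidine kinase of S phase, fell from 94.2, 46.3 and 98.7 CPM to 12.8, 3.41 and 9.99 CPM (-3.26 ± 0.19, adjusted p = 0.00017). In one-carbon metabolism 6 of 28 rose and 6 fell (3 and 15 with library totals), with Mthfs, which acts on folinic acid, higher by 3.89 ± 0.20.

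**Figure D3:**
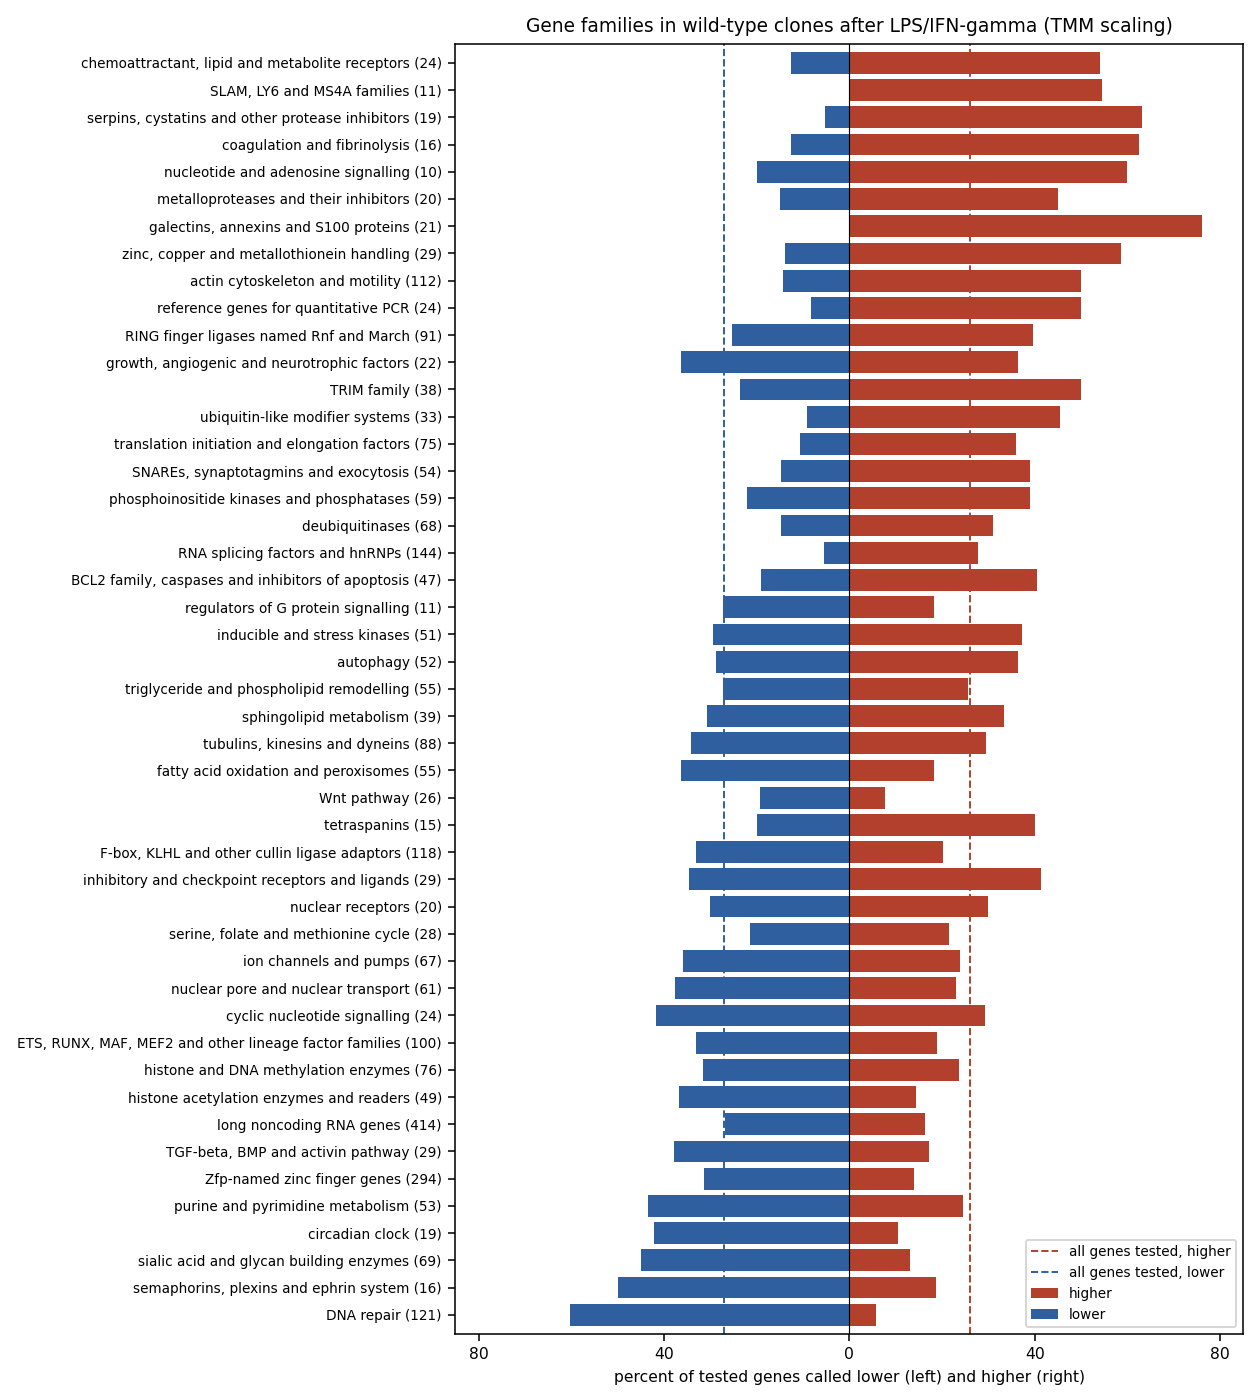
Percent of tested genes called lower (blue, left) and higher (red, right) in the gene lists described, with TMM scaling, ordered by median log2 fold change, with the number tested in parentheses and dashed lines for all genes tested (27.1% lower, 26.0% higher). DNA repair lies at one end, and chemoattractant receptors, protease inhibitors and coagulation genes at the other.

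Ubiquitin ligases of the TRIM family included 19 of 38 higher and 9 lower (16 and 18 with library totals). Trim30a, a member of a mouse-specific interferon-inducible cluster, rose from 47.4, 35.0 and 104 CPM to 1030, 603 and 1478 CPM (4.13 ± 0.16, adjusted p = 5.7e-05), and Trim65 fell from 13.8 ± 2.32 to 4.05 ± 1.59 CPM (-1.80 ± 0.23). RING finger ligases included 36 of 91 higher and 23 lower (22 and 33 with library totals), with Rnf227 lower by 2.62 ± 0.27 on the log2 scale. Deubiquitinases included 21 of 68 higher and 10 lower (12 and 29 with library totals). Tnfaip3, which encodes the NF-kB-restraining enzyme A20, rose from 3.48, 9.01 and 3.67 CPM to 131, 399 and 284 CPM (5.66 ± 0.23, adjusted p = 6.9e-05). Ubiquitin-like systems included 15 of 33 higher and 3 lower (7 and 12 with library totals): Herc6, the ISG15 ligase of mouse, rose from 12.4 ± 3.96 to 157 ± 70.7 CPM (3.61 ± 0.18) and Uba7, the ISG15 activating enzyme, from 24.7 ± 10.2 to 141 ± 59.1 CPM (2.49 ± 0.18). Of 118 cullin adaptors 24 were higher and 39 lower (11 and 63 with library totals), with a median of -0.05, near that of all genes.

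Protease inhibitors mostly rose. Of 19 tested serpins, cystatins and related inhibitors 12 rose and 1 fell (11 and 4 with library totals). Serpina3f, a serpin of the expanded mouse Serpina3 cluster, stood at 0.284, 0.308 and 0.489 CPM in medium and 467, 569 and 559 CPM after stimulation (10.47 ± 0.18, adjusted p = 1.5e-05). Its neighbour Serpina3g went from 3 to 3062 counts, a 1392-fold ratio (476 to 6754). Of metalloproteases and their inhibitors 9 of 20 rose and 3 fell (9 and 6 with library totals). Timp1, a broad inhibitor of matrix metalloproteases, stood at 9.88, 0.077 and 3.24 CPM in medium and 189, 139 and 373 CPM after stimulation (6.04 ± 0.81, adjusted p = 0.0025). Adam10, a sheddase of membrane proteins, fell from 198 ± 15 to 99.6 ± 6.33 CPM (-0.99 ± 0.11). Of coagulation and fibrinolysis genes 10 of 16 rose and 2 fell (9 and 3 with library totals), and Serpinb2, the plasminogen activator inhibitor type 2, rose from 4 counts to 525 (7.36 ± 0.38). All 16 called genes of the 21 tested galectins, annexins and S100 proteins rose (11 higher and 2 lower with library totals), with the phospholipid-binding Anxa3 up from 7.66 ± 6.45 to 45.5 ± 31.5 CPM (2.64 ± 0.22).

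Surface proteins that restrain or stimulate lymphocytes included 12 of 29 higher and 10 lower (11 and 13 with library totals). Cd274, the checkpoint ligand PD-L1, rose from 3.06, 4.39 and 1.22 CPM to 177, 325 and 128 CPM (6.21 ± 0.19, adjusted p = 3.5e-05). Sirpa, the receptor for the CD47 signal that limits phagocytosis, fell from 145, 493 and 206 CPM to 17.6, 64.3 and 7.75 CPM (-3.50 ± 0.38, adjusted p = 0.0013). Cd276, the B7 family member B7-H3, fell from 1.14, 22.4 and 5.56 CPM to 0, 2.51 and 0.560 CPM (-3.30 ± 0.33), and its medium and stimulated libraries overlapped, as clones stood at different levels in medium. Among SLAM, LY6 and MS4A genes 6 of 11 rose and none fell (4 and 1 with library totals). Slamf8, a SLAM receptor of myeloid cells, rose from 0.298 ± 0.135 to 203 ± 210 CPM (9.14 ± 0.42, adjusted p = 9.5e-05), and Ly6a, which encodes the interferon-inducible antigen Sca-1, went from 2 to 1121 counts, a 764-fold ratio (211 to 6320).

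Enzymes that build glycans fell more often than they rose, 31 of 69 against 9 (46 and 7 with library totals). Chst3, a chondroitin sulfotransferase, fell from 59.0, 57.6 and 32.8 CPM to 15.4, 6.32 and 1.96 CPM (-2.89 ± 0.38), whereas B4galt5, a galactosyltransferase of lactosylceramide synthesis, rose from 34.5 ± 1.49 to 135 ± 21.8 CPM (1.95 ± 0.11). Sphingolipid genes were split, with 13 of 39 higher and 12 lower (7 and 21 with library totals). The ceramide synthase gene Cers6 rose from 164 ± 29.0 to 543 ± 184 CPM (1.70 ± 0.12), and the ceramide kinase gene Cerk fell from 62.5 ± 20.2 to 8.30 ± 3.03 CPM (-2.92 ± 0.17, adjusted p = 0.00017). Ugcg, which makes glucosylceramide from ceramide, rose by 1.36 ± 0.10. In glycerolipid remodelling 14 of 55 rose and 15 fell (9 and 27 with library totals): Agpat4, an acyltransferase of lysophosphatidic acid, rose from 12.4 ± 1.56 to 102 ± 8.52 CPM (3.04 ± 0.14) and Lpin1, a phosphatidate phosphatase and coactivator, fell from 6.26, 4.24 and 7.64 CPM to 0.449, 0.501 and 0.747 CPM (-3.40 ± 0.26). Fatty acid oxidation and peroxisome genes included 10 of 55 higher and 20 lower (3 and 30 with library totals), with the peroxisomal carnitine transferase gene Crot lower by 1.82 ± 0.13 and the acyl-CoA thioesterase gene Acot9 up from 40.4 ± 4.21 to 157 ± 22.5 CPM (1.95 ± 0.10).

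Of 29 tested genes for zinc, copper and metallothionein handling, 17 were higher and 4 lower (12 and 5 with library totals). Slc31a2, a copper transporter of endolysosomes, stood at 7.61, 12.5 and 8.37 CPM in medium and 86.7, 167 and 103 CPM after stimulation (3.63 ± 0.11, adjusted p = 3.7e-05). Steap3, an endosomal metalloreductase, fell from 9.16 ± 1.59 to 1.24 ± 0.852 CPM (-2.93 ± 0.35). Ion channels and pumps included 16 of 67 higher and 24 lower (11 and 34 with library totals). The inward rectifier potassium channel gene Kcnj2 fell from 16.6, 175 and 44.0 CPM to 3.23, 14.4 and 1.49 CPM (-3.56 ± 0.40), and Tpcn1, a two-pore channel of endolysosomes, from 78.9 ± 34 to 16.1 ± 5.25 CPM (-2.26 ± 0.17). Of 15 tetraspanins 6 rose and 3 fell (2 and 8 with library totals).

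Of 112 actin cytoskeleton and motility genes 56 rose and 16 fell (36 and 32 with library totals), with a median of 0.34 that was -0.02 with library totals. Evl, an actin filament elongation factor of the Ena/VASP family, rose from 0.142, 0.770 and 0.183 CPM to 25, 45.6 and 49.3 CPM (6.82 ± 0.34, adjusted p = 0.00012). Its binding partner Zyx, the focal adhesion protein zyxin, rose from 1.99, 3.39 and 2.08 CPM to 57.4, 290 and 99.7 CPM (5.69 ± 0.30). Fmnl3, a formin, fell from 63.4 ± 12.7 to 17.1 ± 10.2 CPM (-2.0 ± 0.23). Tubulins and motors were split, with 26 of 88 higher and 30 lower (12 and 44 with library totals): Kifc3, a minus-end kinesin, fell from 71.3 ± 22.9 to 8.67 ± 6.48 CPM (-3.18 ± 0.23), and the neuronal-type tubulin gene Tubb3 rose from 8 counts to 238 (5.18 ± 0.38). SNARE and exocytosis genes included 21 of 54 higher and 8 lower (13 and 20 with library totals), with Stx3 and Stx11, syntaxins of secretory cells, up from 7.41 ± 3.72 to 57.1 ± 25 CPM (2.98 ± 0.14) and from 2.71 ± 1.05 to 34.6 ± 19.4 CPM (3.60 ± 0.35).

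Cell death genes of the BCL2, caspase and IAP families included 19 of 47 higher and 9 lower (12 and 20 with library totals). Bcl2a1b, an anti-apoptotic member, rose from 10.6 ± 7.34 to 177 ± 73.1 CPM (4.20 ± 0.25), a value that may be shared with its near-identical paralogs, and Bcl2 fell from 19.9 ± 6.77 to 6.70 ± 0.970 CPM (-1.53 ± 0.19). Of 52 autophagy genes 19 rose and 15 fell (6 and 25 with library totals). Vmp1, a membrane protein of autophagosome formation, stood at 90.5, 89.8 and 91.7 CPM in medium and 387, 369 and 385 CPM after stimulation (2.07 ± 0.09, adjusted p = 9e-05), with little spread between clones. Trp53inp1, a p53-inducible protein, fell from 29.1 ± 22.3 to 3.10 ± 1.97 CPM (-3.17 ± 0.16).

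Genes of RNA and protein synthesis moved by small steps whose direction followed the scaling. Of 144 genes in a list of splicing factors and other RNA-binding proteins, 40 rose and 8 fell with TMM scaling. With library totals 7 rose and 58 fell. The list also held the RNA sensor gene Dhx58. For 75 translation factors the counts were 27 and 8 with TMM scaling and 7 and 25 with library totals. Changes larger than the shift between scalings were seen in single genes: the RNA sensor gene Dhx58 rose from 14.3 ± 14.8 to 197 ± 109 CPM (4.09 ± 0.28), Eif2ak2, the antiviral kinase PKR, from 108 ± 46.1 to 671 ± 217 CPM (2.66 ± 0.14), and Pdcd4, an inhibitor of translation initiation and a target of miR-21, fell from 40.2 ± 33.1 to 5.55 ± 2.23 CPM (-2.66 ± 0.25). Nuclear pore and transport genes included 14 of 61 higher and 23 lower (4 and 40 with library totals), with the giant pore protein gene Ranbp2 up from 608 ± 56.4 to 1372 ± 303 CPM (1.16 ± 0.12).

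The genes most often used to normalise quantitative PCR were not all level. Of 24 such genes 12 rose and 2 fell with TMM scaling, and 6 rose and 8 fell with library totals. B2m rose by 1.98 ± 0.16, Actb by 1.29 ± 0.11 (95% interval 1.01 to 1.57) and Gapdh by 0.85 ± 0.13 (0.52 to 1.17), and these 3 stayed higher with library totals at 1.61, 0.93 and 0.48. Gapdh was read at only 33.6 ± 6.39 CPM in medium and 59.9 ± 6.45 CPM after stimulation. Whether all reads of Gapdh were counted was not tested, so its change is uncertain. Polr2a, the largest subunit of RNA polymerase II, fell from 39.6 ± 9.01 to 17.1 ± 5.12 CPM (-1.21 ± 0.28), with values of -0.91 (adjusted p = 0.053) without clone 1 and -1.09 (adjusted p = 0.069) without clone 2. The genes closest to 0 were Tbp at 0.00 ± 0.11 (-0.27 to 0.27), Tubb5 at 0.01 ± 0.12 (-0.29 to 0.30) and Ppia at -0.07 ± 0.14 (-0.41 to 0.27). With library totals each of these 3 was called lower, at -0.36, -0.36 and -0.43, while Hprt (0.26 and -0.10), Eif4a2 (0.21 and -0.15), Rpl13a (0.22 and -0.14) and Rps18 (0.31 and -0.05) were called on neither scale. In the fit of all 12 libraries with clone as a block, Hprt, Eif4a2, Rpl13a and Rps18 were each called higher. Their values there were 0.26, 0.21, 0.21 and 0.31 (adjusted p = 0.017, 0.042, 0.028 and 0.019). A missing call does not show that a gene was level.

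**Figure D4:**
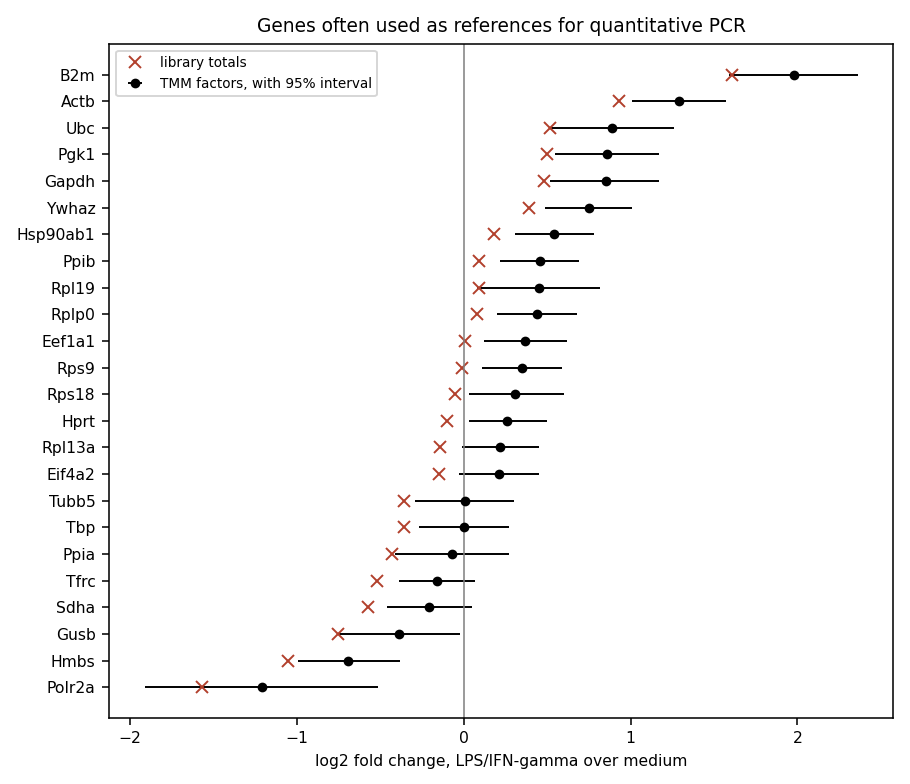
Log2 fold change after LPS/IFN-gamma of 24 genes often used as references for quantitative PCR, with 95% intervals and TMM scaling (black points) and with library totals (red crosses). Tbp, Tubb5 and Ppia lie nearest 0 with TMM scaling, and B2m and Actb lie above 0 on both scales.

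The markers of the cells themselves shifted as well. Of 15 tested macrophage markers 10 rose and 2 fell (8 and 4 with library totals). Mrc1, the mannose receptor often used for alternatively activated macrophages, rose from 0.213, 0.231 and 0.306 CPM to 10.2, 6.82 and 3.64 CPM (4.64 ± 0.38, adjusted p = 0.00048). Ptprc, the pan-leukocyte antigen CD45, rose from 343 ± 115 to 940 ± 401 CPM (1.42 ± 0.11), and Adgre1, the F4/80 antigen, from 209, 89.2 and 54.2 CPM to 497, 223 and 141 CPM (1.32 ± 0.09). Tlr4, the LPS receptor, fell from 81.5 ± 11.9 to 22.6 ± 6.92 CPM (-1.88 ± 0.13). Lyz2 went from 9866 ± 4837 to 10752 ± 4270 CPM (0.17 ± 0.11) and was not called.

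Of 414 tested long noncoding RNA genes 68 rose and 111 fell (44 and 175 with library totals). With TMM scaling these are 16.4% higher and 26.8% lower, against 26.0% and 27.1% of all tested genes. The share that fell was thus near that of all genes, and the share that rose was smaller. A530040E14Rik, an antisense gene beside the Sp110 cluster, rose from 0.356, 0.231 and 1.16 CPM to 26.7, 14.8 and 29.2 CPM (5.33 ± 0.32). Ptgs2os2, which neighbours Ptgs2, rose from 3.80 ± 2.05 to 43.8 ± 3.12 CPM (3.58 ± 0.31), and Mir22hg, the host of miR-22, from 11.5 ± 5.21 to 83.8 ± 29.8 CPM (2.91 ± 0.23). In the other direction Ttc39aos1, antisense to Ttc39a, fell from 5.02 ± 1.82 to 0.361 ± 0.474 CPM (-3.80 ± 0.53), and B230312C02Rik from 7.78 ± 1.64 to 1.70 ± 0.242 CPM (-2.17 ± 0.20). Whether counting used strand is not given in the sources used here, so an antisense gene and its partner cannot be told apart where they overlap; Ttc39a itself was also lower (-4.04 ± 0.29).

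Counts over microRNA hairpins read the precursor or its host transcript and not the mature RNA. Of 42 such genes 12 rose and 7 fell with TMM scaling, beside 26.0% higher and 27.1% lower over all tested genes. Their median log2 fold change was 0.17 with TMM scaling and -0.19 with library totals. Of the 42 genes, 31 overlap the exons of another gene or share its counts. Mir147 went from 0 to 183 counts, at least 83.2-fold higher, within AA467197. Mir21a, which overlaps Vmp1, rose from 8 to 66 counts (3.43, adjusted p = 0.0016), and Mir22, within Mir22hg, from 16 to 87 (2.85, adjusted p = 0.00098). Mir221, which overlaps no annotated gene at the threshold used, rose from 184 to 403 counts (1.58, adjusted p = 0.00099). These 4 were picked after their values were seen. One mature arm of each is printed from RefSeq, with the seed (bases 2 to 8) in capitals, and these 4 arms have different seeds. The table used lists a further arm for Mir21a, Mir22 and Mir221.
mmu-miR-147-5p: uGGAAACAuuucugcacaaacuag
mmu-miR-21a-5p: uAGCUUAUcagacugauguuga
mmu-miR-22-3p: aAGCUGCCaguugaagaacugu
mmu-miR-221-3p: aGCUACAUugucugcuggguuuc

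A minority of the genes that differed widely in level between clones in medium differed little in response. Across genes, the responses of 2 clones correlated at 0.905, 0.904 and 0.903 for the 3 pairs, as a description over 11797 genes that are not independent. Over 8250 genes with at least 20 CPM in 1 library, the median range of the log2 response over the 3 clones was 0.38. The range reached 1 in 775 of these genes and 2 in 153. Sla, which encodes an adaptor that dampens antigen and growth factor receptors, stood at 6.61, 310 and 13 CPM in medium, a 46.8-fold spread, and at 0.0897, 10.8 and 0.280 CPM after stimulation. With a prior count of 2 its responses were -4.76, -4.82 and -4.90. The stimulated levels of clones 1 and 3 lay near 0. Their responses therefore depend on the prior count, and the likeness between clones is uncertain. Ccl3, a chemokine, stood at 190, 57.2 and 57.1 CPM in medium and 3349, 1116 and 1075 CPM after stimulation, with responses of 4.14, 4.28 and 4.23. Of 632 genes past 4-fold with at least 1 CPM in both groups, 136 differed by more than 4-fold between clones in medium. In 27 of these, Sla among them, the response ranged by less than 1 with a prior count of 2. In the rest of the 136 it ranged by 1 or more.

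Several interferon-inducible genes stood at different levels in the clones before stimulation. Usp18, which removes ISG15 and restrains the type I interferon receptor, stood at 5.40, 2.39 and 67.0 CPM in medium and 500, 219 and 1217 CPM after stimulation (5.59 ± 0.56, and 5.11 at an adjusted p of 0.062 without clone 1). Cmpk2, a nucleotide kinase induced by interferon, stood at 3.70, 0.693 and 23.6 CPM in medium and 586, 149 and 668 CPM after stimulation (6.26 ± 0.62, and 5.68 at an adjusted p of 0.064 without clone 1). Ifi44l stood at 1.21, 0 and 31.7 CPM in medium and 90.9, 43.2 and 286 CPM after stimulation (4.73 ± 0.79, and 4.18 at an adjusted p of 0.16 without clone 1). Lgals9, a galectin that interferons induce, stood at 3.20, 0.616 and 19.0 CPM and then 92.5, 42.5 and 193 CPM (4.33 ± 0.45, and 4.09 at an adjusted p of 0.072 without clone 1). In each of these 4 genes clone 3 was highest and clone 2 lowest in both conditions, and the same order held for Dhx58, Rnf213 and Trim30a. It did not hold for all: Irgm1, an immunity-related GTPase gene, was highest in clone 3 in medium (22.4, 16.5 and 91.2 CPM) and lowest there after stimulation (1905, 1641 and 1568 CPM), with a change of 5.33 at an adjusted p of 0.082 without clone 1. Ifit1 went from 2.99, 1.31 and 16.9 CPM to 1204, 349 and 1189 CPM. These genes were chosen after their values were seen, and no count over all interferon-inducible genes was made. With 1 library per clone and condition this order has no test.

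The widest ranges of response belonged to Cxcl3, Mab21l3, Fhod3, Timp1, Ifi44l, Il33, Tnc, Pdcd1, Sdc1 and Cd207. Mab21l3 stood at 0.569, 0.539 and 0 CPM in medium and 22.0, 229 and 227 CPM after stimulation, with responses of 4.93, 8.36 and 10.48. Fhod3, a formin, rose to 36.9 and 23.9 CPM in clones 1 and 2 and to 1.12 CPM in clone 3. Tnc, the matrix glycoprotein tenascin-C, rose from 5.70 to 662 CPM in clone 2 and to 0.628 and 3.73 CPM in clones 1 and 3. Pdcd1, the checkpoint receptor PD-1, was the gene among these whose direction parted most: it went from 82.6 to 136 CPM in clone 1, from 216 to 15.9 CPM in clone 2 and from 120 to 30 CPM in clone 3, and was not called (-1.67 ± 0.88, adjusted p = 0.16). Sdc1, the heparan sulfate proteoglycan syndecan-1, went from 6.70 to 49.7 CPM in clone 2 and from 3.42 to 1.12 CPM in clone 3 and was not called (1.41 ± 0.89, adjusted p = 0.23); without clone 3 it was 2.74 at an adjusted p of 0.0034.

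**Figure D5:**
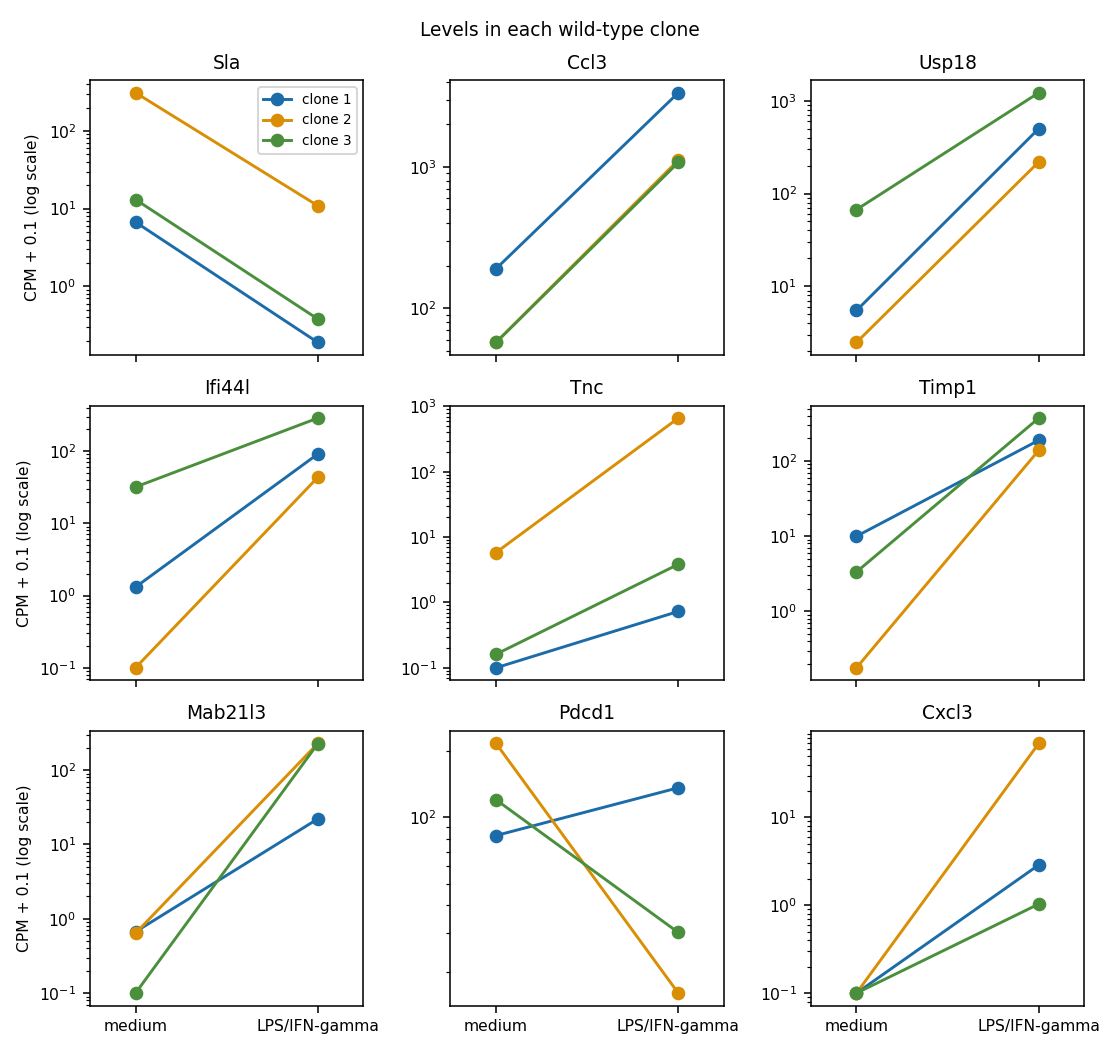
CPM (plus 0.1, log axes that differ between panels) of 9 genes in medium and after LPS/IFN-gamma, with 1 line per wild-type clone. The lines run side by side for Sla and Ccl3, lie in the same order in both conditions for Usp18 and Ifi44l, and cross for Timp1, Mab21l3 and Pdcd1.

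Clone 1 stood apart in level among genes of both directions after stimulation, and in part already in medium. Among 402 genes that rose past 4-fold and had at least 1 CPM in medium, it was highest after stimulation in 13.7% and lowest in 43.5%, against 32.6% and 32.7% of 11025 tested genes with at least 1 CPM in both groups. Among 230 genes that fell past 4-fold and kept at least 1 CPM, it was highest after stimulation in 62.2% and lowest in 12.2%. In medium it was highest in 21.4% of the 402 genes and in 30.4% of the 230 genes, against 26.0% of the tested genes. It was lowest in medium in 38.1% of the 402 genes and in 21.3% of the 230 genes, against 29.4%. Clone 2 was lowest in 43.5% of the 230 genes in medium and in 49.1% after stimulation, against 36.9% and 35.4% of the tested genes. The median response of all 339 genes that fell past 4-fold was -2.14 in clone 1, -2.48 in clone 2 and -2.57 in clone 3, while for the 600 genes that rose past 4-fold it was 3.31, 3.29 and 3.34. These genes were chosen from the same libraries, and the difference between clones was not tested.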

How the data were processed

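Total RNA of 6 libraries (3 WT clones in 2 conditions) was analysed from the table of whole-number counts per Ensembl gene that the authors deposited for all 12 samples. Per the submitters' processing notes, reads were placed on mm10 (GRCm38). How they were aligned and counted, and whether by strand, is not stated in the sources at hand. Genes were named, placed and typed with GENCODE M21 of that build: 12305 of 12483 IDs had a name. Genes sharing at least 30% of their exons with another gene, or with counts identical to another gene, were marked uncertain. Counts were fitted with edgeR 4.0.16 in R 4.3.3: filterByExpr left out 686 genes, TMM factors scaled the libraries, and a robust quasi-likelihood model held clone as a block. This gave a biological coefficient of variation of 14.8% (29.3% without the block), with 2 residual degrees of freedom. A call needed an adjusted p (Benjamini-Hochberg) below 0.05, and the 4-fold limit was applied to the estimate. The script was tested on simulated data.

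The labels pair the libraries by clone. Deviations from the group means correlated at 0.653, 0.715 and 0.638 within clones 1, 2 and 3 and were negative between clones. Totals of 11509116 to 14388590 counts set the precision, and intervals and floors for genes with 0 to 3 counts cover counting error only. Where nothing says that libraries are separate cultures beyond their clone names, p-values weigh the mean response against the spread between these samples alone.

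The comparison, the gene lists and the alternatives were chosen with earlier results of these data known. Genes were named by a rule: in each list up to 2 called genes at each end with at least 5 CPM in 1 group. Outside the lists it took 15 at each end, 10 with the largest rise and 10 with the largest fall in CPM, genes with 0 to 3 counts in 1 group and at least 100 in the other, 6 noncoding genes at each end, the 10 widest ranges over clones (prior count 2), runs of neighbours, and 1 promoter per motif, off chromosome 18. Genes already known from earlier results of these data were left aside outside the lists, and a few results are not reported here. The named microRNA genes, Csf1r, Il10 and Cxcr4 beside their counts, and the examples of clone order were picked with their values in view. The alternatives were no block, all 12 libraries with and without it, RLE factors, library totals, no filter, each clone left out, and DESeq2 1.42.0.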

Additional observations from a re-analysis of the deposited data

How the results depend on the processing

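With each clone left out, 2294 to 2509 genes were higher and 2324 to 2735 lower, and past 4-fold 595 to 628 were higher and 329 to 420 lower. Library totals gave 1622 higher and 5535 lower genes, 587 of the latter past 4-fold. Without the replicate block 2045 genes were higher and 2002 lower, against 3067 and 3196 with clone as a block; all 2045 and 2002 were also called in the same direction with it. No alternative called a gene in the direction opposite to the primary fit. Of 422 named genes, 68 lost the call without the block, 4 with DESeq2, 1 with RLE factors, and 28, 22 and 21 without clones 1, 2 and 3. With library totals 17 lost the call, and 4 of them, all small rises, changed sign: Csnk1a1 to -0.001, Rap1a to -0.035, Rps9 to -0.013 and S100a6 to -0.022. A further 6 that were not called also changed sign. With all 12 libraries and the block, 7 named genes gained a call. With any RefSeq start of a gene, chosen after seeing the data, ISRE letters were in 19.1% of promoters of genes that rose past 4-fold and 3.13% of those not called. In the 150 bases before the start the shares were 12.9% and 0.884%. Tests with a clone left out rest on 2 clones. Depth limits the folds of genes at 0 to 3 counts.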
